A study of Mus musculus with 6 samples.

Results

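The high mobility group (HMG) chromatin proteins examined here were the products of 9 genes, Hmgn1, Hmgn2, Hmgn3, Hmgn5, Hmga1, Hmga2, Hmgb1, Hmgb2 and Hmgb3, out of 18810 Ensembl genes in the deposited table. The members were selected on gene family by symbol, in the annotation of mouse genome mm9, with the RPKM differences between Scx-/- and Scx+/+ known, so that those differences are given as a description without a test of the members. RNA was sequenced from atrioventricular canal (AVC) regions of the heart at embryonic day 15.5 in C57BL/6 mice, in 3 Scx-/- and 3 Scx+/+ wild-type littermate libraries. Scx encodes scleraxis, a basic helix-loop-helix transcription factor of tendon and valve connective tissue, and the comparison asks which transcripts differ in remodeling valves that lack it. The null allele is carried by every cell of the embryo. The AVC regions held mitral, tricuspid and aortic valves and were dissected without sorting of cells. Values are RPKM, reads scaled to the length of the exons and the depth of the library. Being per length, they can be compared between genes, as far as reads can be assigned to each gene. The share of unique sequence differs between the members and is given below.

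HMG proteins are small, abundant nuclear proteins that change how DNA is packed without being histones. HMGN proteins bind the nucleosome core and compete with linker histone H1, which loosens chromatin. HMGA proteins carry AT-hooks that grip the minor groove of AT-rich DNA, and they are high in embryonic and proliferating cells and low in most adult tissues. HMGB proteins carry a pair of HMG boxes that bend DNA, and HMGB1 also acts outside the cell as an alarm signal.

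Sequence decides how well each member can be counted, because many HMG transcripts have been copied back into the genome as intronless pseudogenes. The first 90 coding bases of 5 members are given, for 3 of them with a copy that is listed in the table and differs, read from mm9 on the coding strand, 5′ to 3′. Capitals mark the bases of a copy that differ from its parent gene.

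Hmgn1: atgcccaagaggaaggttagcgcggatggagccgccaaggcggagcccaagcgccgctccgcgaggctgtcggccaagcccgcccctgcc
Gm7862: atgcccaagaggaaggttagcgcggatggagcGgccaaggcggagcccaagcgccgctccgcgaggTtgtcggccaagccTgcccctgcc
Hmgn2: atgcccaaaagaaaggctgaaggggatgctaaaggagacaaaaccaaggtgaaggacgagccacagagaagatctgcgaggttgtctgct
Gm7931: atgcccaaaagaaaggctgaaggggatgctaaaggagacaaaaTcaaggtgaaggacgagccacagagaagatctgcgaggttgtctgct
Hmgn3: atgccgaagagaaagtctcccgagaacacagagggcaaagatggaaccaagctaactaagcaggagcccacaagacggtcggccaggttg
Hmgn5: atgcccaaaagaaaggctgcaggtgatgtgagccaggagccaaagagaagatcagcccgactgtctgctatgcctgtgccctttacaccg
Hmgb1: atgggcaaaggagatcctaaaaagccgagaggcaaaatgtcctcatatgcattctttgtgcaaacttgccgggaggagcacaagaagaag
Gm15387: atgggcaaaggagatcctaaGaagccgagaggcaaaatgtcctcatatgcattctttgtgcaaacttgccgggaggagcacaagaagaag

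Gm7862 (chr12:77253525-77253614, minus strand) differed from Hmgn1 at 3 of these 90 bases. Gm7931 (chr5:46805583-46805672, plus strand) differed from Hmgn2 at 1, and Gm15387 (chr15:73924674-73924763, minus strand) from Hmgb1 at 1. Over the same stretch Hmgn2 was identical to Gm10182, Gm10282 and Hmgn2-ps1, Hmgn5 to Gm11914, and Hmgb3 to Gm6104. Hmgn3 had no copy elsewhere in the table at 90% identity over 200 bases. Between members, coding sequences were 74.3% to 78.7% identical among Hmgb1, Hmgb2 and Hmgb3, 71.2% between Hmga1 and Hmga2, and 65.1% to 68.9% among Hmgn1, Hmgn2 and Hmgn3 over the aligned bases. Hmgn5 gave 77.3% to 81.8% with the other HMGN genes over the aligned bases. Its coding sequence has 1218 bases, along which the alignment can spread the shorter sequences with gaps. These shares therefore cannot be compared with those of the other pairs.

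All 9 members were above the fill-in value of the table in all 6 libraries. Reads recovered from RPKM and exon length ranged from 194 for Hmga2 to 13357 for Hmgn2 in single libraries. The order of mean RPKM over the 6 libraries began with Hmgn2 at 62.1 ± 10.2 (SD, n = 6) and Hmgb2 at 58.2 ± 12.3 (SD, n = 6). Hmgn3 at 34.3 ± 9.36, Hmgb3 at 34.1 ± 6.10 and Hmgn1 at 30.6 ± 5.35 (SD, n = 6 each) formed a middle group. Hmgb1 followed at 18.1 ± 2.36 (SD, n = 6), then Hmga1 at 6.33 ± 1.83 and Hmgn5 at 3.93 ± 1.26 (SD, n = 6 each), and Hmga2 was lowest at 1.17 ± 0.452 (SD, n = 6).

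Neighbours in that order were separate in all 6 libraries only at 4 steps, from Hmgb2 to Hmgn3, from Hmgn1 to Hmgb1, from Hmgb1 to Hmga1 and from Hmgn5 to Hmga2. Hmgn2 exceeded Hmgb2 in 4 of 6 libraries and Hmgn3 exceeded Hmgb3 in 3 of 6, so neither pair differed beyond its spread. Hmgb3 exceeded Hmgn1, and Hmga1 exceeded Hmgn5, in 5 of 6 libraries with overlapping ranges. The ratio of the highest to the lowest library was smallest for Hmgb1, at 1.38, and largest for Hmga2, at 3.82.

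**Figure D1:**
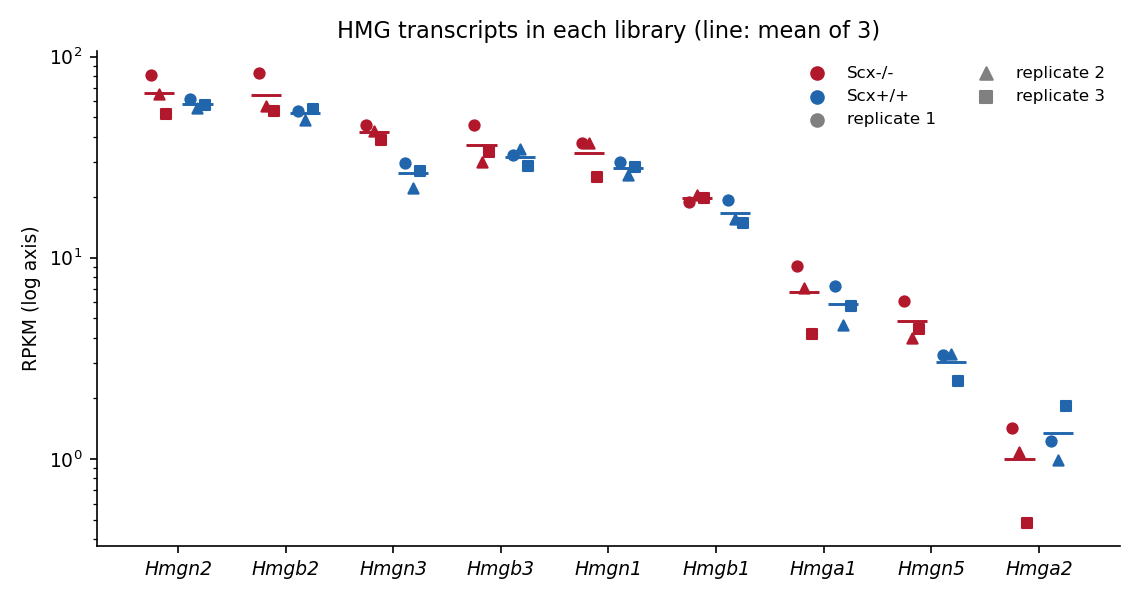
RPKM of each HMG gene on a log axis in 3 Scx-/- (red) and 3 Scx+/+ (blue) libraries, with the replicate number as the symbol shape and the mean of 3 as a line. Hmgn3 and Hmgn5 are the genes whose red points all lie above the blue ones, and Hmga2 has the widest spread.

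Of the HMG genes, Hmgn3 and Hmgn5 had all Scx-/- libraries above all Scx+/+ libraries. Hmgn3 was 1.61-fold and Hmgn5 1.604-fold higher in the ratio of means. The other members were between 0.737-fold and 1.23-fold, with overlapping libraries. Across the table, 7.19% of genes had all Scx-/- libraries above all Scx+/+ libraries. A moderated linear model (limma), fitted on log2(RPKM + 0.1) over all 18810 genes, called 2 of 9 members at an unadjusted p below 0.05, where 3.89% of all genes were called in either direction and 2.82% were called higher. Both were called higher. None of the 18810 genes had an adjusted p below 0.05 in limma, where 731 had an unadjusted p below 0.05. An analysis of variance on log2 values left 1 after adjustment. As the members were chosen on this contrast, nothing is read from these counts.

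A log2 fold change is the Scx-/- minus the Scx+/+ mean of log2(RPKM + 0.1), which understates the change of low genes such as Hmga2. It was above 0 for 8 of 9 members and for 63.8% of all genes, with a median of 0.22 over the members (range -0.47 to 0.69) and 0.10 over all genes. Of the called genes, 72.6% were higher in Scx-/-. That share was 49.9% after quantile normalization, 43.5% with library medians set to 0, and 45.2% with the trends on exon length and GC content removed. Setting the library medians to 0 lowered the median of the HMG genes to 0.12 and that of Hmgn3 and Hmgn5 to 0.58 and 0.55, while Hmgn2, Hmga1 and Hmgb3 came to between 0.05 and 0.06. The same 8 members stayed above 0 under each of these scalings, and Hmga2 below.

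Among the HMGN genes, Hmgn3 (ENSMUSG00000066456, mm9 chr9:83003555-83040292, minus strand) encodes a nucleosome-binding protein best known from eye, brain and pancreatic islets. Hmgn3 was 45.8, 42.5 and 38.3 RPKM in Scx-/- replicates 1 to 3, and 29.7, 22.1 and 27.0 RPKM in Scx+/+ replicates 1 to 3. The lowest Scx-/- library lay above the highest Scx+/+ library. Its means were 42.2 ± 3.75 RPKM in Scx-/- and 26.3 ± 3.86 RPKM in Scx+/+ (SD, n = 3 each), which is 0.69 as a log2 fold change (standard error 0.17). The values rested on 4455, 5296 and 4255 reads in Scx-/- and 3318, 1909 and 3448 reads in Scx+/+. Of the 32-base windows of its exons, 99.4% occurred once in mm9, the highest share of the 9 members. Hmgn3 was called in 11 of 11 other settings and in 6 of 6 fits with a library left out, where its log2 fold change lay between 0.57 and 0.78.

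Hmgn5 (ENSMUSG00000031245, mm9 chrX:106199873-106208743, minus strand) encodes the HMGN protein with a long acidic tail, which counteracts compaction by linker histone. Hmgn5 was 6.11, 3.998 and 4.42 RPKM in Scx-/- replicates 1 to 3, and 3.29, 3.33 and 2.44 RPKM in Scx+/+ replicates 1 to 3. The groups did not overlap, but the lowest Scx-/- value was close to the highest Scx+/+ value, and Scx-/- replicate 1 stood above the other 5 libraries. Means were 4.84 ± 1.12 RPKM in Scx-/- and 3.02 ± 0.505 RPKM in Scx+/+ (SD, n = 3 each), which is 0.65 as a log2 fold change (standard error 0.26). The call was present in 9 of 11 other settings and in 2 of 6 fits with a library left out. It was lost without Scx-/- replicate 1, where the log2 fold change was 0.48, and without Scx-/- replicate 3, Scx+/+ replicate 1 or Scx+/+ replicate 3, where it was 0.71, 0.72 and 0.51.

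Hmgn5 has 1 copy in the table, Gm11914, 99.4% identical over 507 bases, which held between 22.0% and 51.0% as many reads as Hmgn5. Gm11914 was 5.13, 4.15 and 6.01 RPKM in Scx-/- and 6.41, 3.48 and 4.31 RPKM in Scx+/+, with overlapping groups. If all reads of Gm11914 are taken off Hmgn5, an alternative chosen after seeing the data, 482, 377 and 329 reads were left in Scx-/- and 187, 217 and 173 in Scx+/+. The log2 fold change of the remainder was 0.94. The groups did not overlap in the remainder either. Gm11914 itself had a log2 fold change of 0.13, so taking its reads off raises that of Hmgn5 by arithmetic. Whether its reads were also counted in Hmgn5 is not given, so the remainder is not a better estimate.

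Hmgn1 and Hmgn2 encode the widely expressed HMGN proteins. Hmgn1 (ENSMUSG00000040681, mm9 chr16:96342225-96349336, minus strand) was 37.4, 37.0 and 25.3 RPKM in Scx-/- and 30.0, 25.9 and 28.2 RPKM in Scx+/+. Its groups overlapped, with Scx-/- replicate 3 the lowest of the 6 libraries. Its log2 fold change was 0.22 (standard error 0.19), and a call appeared only without Scx-/- replicate 3, at 0.41. Hmgn2 (ENSMUSG00000003038, mm9 chr4:133520653-133524565, minus strand) was 80.7, 65.2 and 52.0 RPKM in Scx-/- and 61.5, 55.7 and 57.5 RPKM in Scx+/+. The Scx-/- libraries lay on both sides of the Scx+/+ libraries, and the SD was 14.4 RPKM in Scx-/- against 2.94 RPKM in Scx+/+ (n = 3 each). Its log2 fold change was 0.16 (standard error 0.19) and 0.00 without Scx-/- replicate 1.

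By listed RPKM the HMGA genes were the least abundant family. Hmga1 (ENSMUSG00000046711, mm9 chr17:27693565-27700619, plus strand) was 9.06, 7.09 and 4.18 RPKM in Scx-/- and 7.27, 4.63 and 5.74 RPKM in Scx+/+. Scx-/- held both the highest and the lowest library. Its log2 fold change of 0.16 (standard error 0.31) was -0.08 without Scx-/- replicate 1 and 0.46 without Scx-/- replicate 3. An exon of Hmga1 shares 100 bases with AI413582 on the opposite strand, and whether counting used strand is not given in the sources used here.

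Hmga2 (ENSMUSG00000056758, mm9 chr10:119798331-119913525, minus strand), an embryonic growth regulator and a target of the let-7 microRNAs, was the only member with a lower mean in Scx-/-. Hmga2 was 1.42, 1.08 and 0.480 RPKM in Scx-/- and 1.23, 0.986 and 1.83 RPKM in Scx+/+, from 504, 492 and 194 reads and from 502, 310 and 850 reads. The groups overlapped, with the lowest value in Scx-/- replicate 3 and the highest in Scx+/+ replicate 3. The log2 fold change of -0.47 (standard error 0.45) moved to -0.07 without Scx-/- replicate 3 and to -0.25 without Scx+/+ replicate 3, so most of the difference came with these libraries. Exons of Hmga2 share 140 bases with the lincRNA 1700006J14Rik on the opposite strand.

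The HMGB genes encode the DNA-bending proteins. Hmgb1 (ENSMUSG00000066551, mm9 chr5:149858278-149865089, minus strand) was 19.0, 20.4 and 19.7 RPKM in Scx-/- and 19.4, 15.5 and 14.8 RPKM in Scx+/+. The Scx-/- libraries were closely grouped, with an SD of 0.723 RPKM, and Scx+/+ replicate 1 lay within their range. Its log2 fold change was 0.26 (standard error 0.17), and it was called only without Scx+/+ replicate 1, at 0.37.

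Hmgb2 (ENSMUSG00000054717, mm9 chr8:59990640-59994796, plus strand), which is abundant in dividing cells, was 82.6, 56.5 and 53.7 RPKM in Scx-/- and 53.7, 48.1 and 54.6 RPKM in Scx+/+. Scx-/- replicate 1 stood far above the other 5 libraries, which spanned 48.1 to 56.5 RPKM. For Hmgb2 the log2 fold change was 0.28 (standard error 0.20) and 0.08 without Scx-/- replicate 1. Hmgb3 (ENSMUSG00000015217, mm9 chrX:68809093-68813851, plus strand), a family member of embryonic and progenitor cells, was 45.7, 30.0 and 33.5 RPKM in Scx-/- and 32.4, 34.6 and 28.6 RPKM in Scx+/+. Here too Scx-/- replicate 1 was highest and the remaining libraries were mixed. The log2 fold change was 0.17 (standard error 0.20) and -0.00 without Scx-/- replicate 1.

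**Figure D2:**
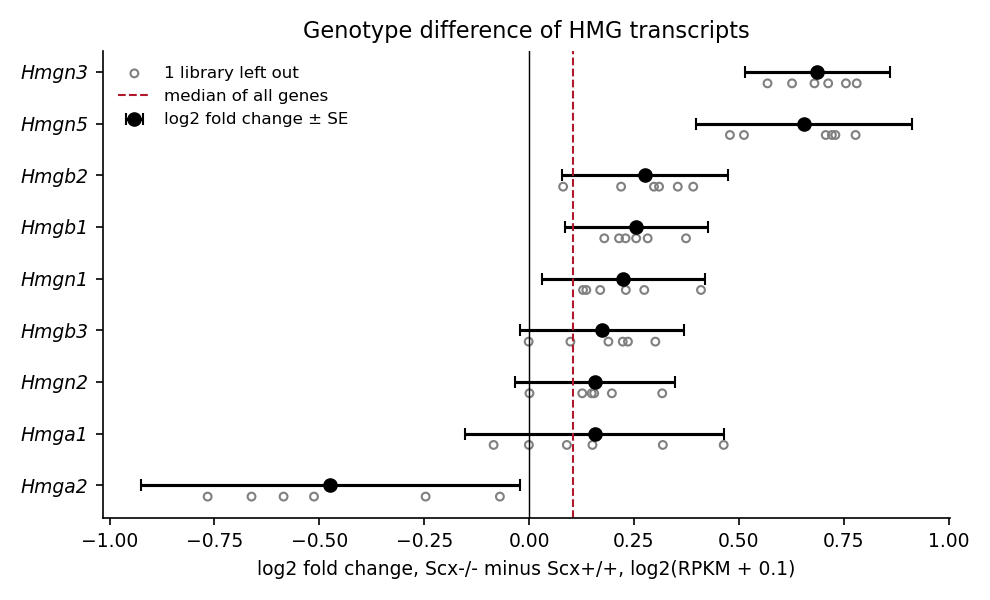
Log2 fold change of each HMG gene, Scx-/- minus Scx+/+, on log2(RPKM + 0.1), with its standard error from limma (black), the values with 1 library left out in turn (open circles) and the median over all genes of 0.10 (dashed line). Hmgn3 at 0.69 and Hmgn5 at 0.65 lie to the right of the other genes, and the open circles of Hmga2 reach from -0.77 to -0.07.

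One library was high in most members. Scx-/- replicate 1 had the highest RPKM of 7 of 9 members, all except Hmgb1 and Hmga2, while 30.1% of the 13827 genes averaging 1 RPKM or more were highest there. Relative to each gene's mean over the 6 libraries, the median in that library was 0.44 for the members and 0.15 for those 13827 genes, on the log2 scale. In Scx-/- replicate 3 the median of the members was -0.09 and 4 members, Hmgn1, Hmgn2, Hmga1 and Hmga2, had their lowest value. Without Scx-/- replicate 1 the members' median log2 fold change was 0.08, and 6 of 9 were above 0. The part of this library in the other differences was not tested beyond leaving it out.

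**Figure D3:**
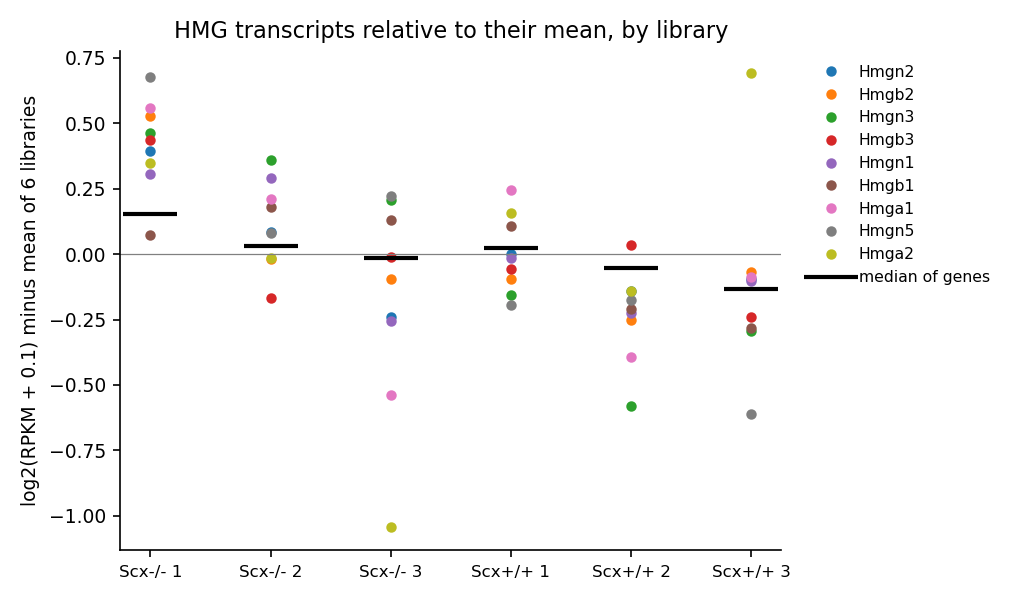
Log2(RPKM + 0.1) of each HMG gene in each library minus its mean over the 6 libraries (coloured points), with the median over 13827 genes averaging 1 RPKM or more (black bars). In Scx-/- replicate 1 all 9 points lie above 0 and 8 lie above the bar, which is at 0.15, and Hmga2 is the lowest point of Scx-/- replicate 3 and the highest of Scx+/+ replicate 3.

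By Xist and Y-linked transcripts, the libraries numbered 2 came from females and the others from males, so sex was balanced between the groups. Hmgn5 and Hmgb3 lie on the X chromosome. Within males (2 libraries a genotype) and within females (1 a genotype, no test), the log2 fold change of Hmgn3 was 0.56 and 0.94, and that of Hmgn5 was 0.85 and 0.26. Hmgn1, Hmgn2, Hmgb1 and Hmgb2 were also above 0 in both sexes. Hmga1, Hmga2 and Hmgb3 changed sign, from -0.07 to 0.60, from -0.77 to 0.13 and from 0.36 to -0.20. With sex as a covariate the same 2 members were called.

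Copies of the HMG genes were themselves listed with RPKM values, and are described for 8 members, without Hmga1. At 90% identity over 200 bases in the same orientation, 67 identifiers matched 6 of these, of which 62 were annotated as pseudogenes and 5 as protein-coding, and some of them share a locus. Hmgb1 had 36 of them, Hmgn2 14, Hmgb2 and Hmgb3 6 each, Hmgn1 4 and Hmgn5 1, while Hmgn3 and Hmga2 had none. A mean of at least 1 RPKM was listed for 44. RPKM is divided by exon length, and many copies hold only the coding part of the transcript. The listed RPKM exceeded that of the parent gene in 10 of 14 copies of Hmgn2, 5 of 6 of Hmgb2, 3 of 4 of Hmgn1, 7 of 36 of Hmgb1, 1 of 6 of Hmgb3 and in the 1 copy of Hmgn5.

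Gm10182 was listed at a mean of 408 RPKM, against 62.1 for Hmgn2. The longer copies Gm10282 and Hmgn2-ps1 held 124% to 137% and 115% to 129% of the reads of Hmgn2 in each library. The copy of Hmgb2 with the highest mean, Gm13167 at 156 RPKM, held 53.6% to 65.1% of the reads of Hmgb2, and Gm13237 held 68.9% to 80.3%. Gm6104 held 79.1% to 92.3% of the reads of Hmgb3. For Hmgb1 the most abundant copy, Gm15387, held 27.8% to 33.6% of its reads.

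Long copies thus held reads of the same order as their parents, and 2 copies of Hmgb2, Gm4169 and Gm13160, held 6534 and 6535 reads in Scx-/- replicate 1 and 3982 each in Scx+/+ replicate 2. How reads that align to several loci were assigned is not given in the sources used here, and reads of a parent and its copies cannot be told apart where their sequence is the same. The share of 32-base exon windows that occur once in mm9 was 76.3% for Hmga2, 72.5% for Hmgn1, 69.8% for Hmgn5, 65.6% for Hmgn2, 61.9% for Hmgb2 and 56.9% for Hmgb1. It was 33.6% for Hmgb3 and 29.7% for Hmga1, the lowest shares of the 9 members.

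The copies of HMG genes are not independent of their parents. Of the 44 copies with a mean of at least 1 RPKM, 39 had a log2 fold change above 0, with a median of 0.24. The copies of Hmgb2 with at least 1 RPKM ranged from 0.20 to 0.27, below the 0.28 of Hmgb2 itself. Among the copies only Gm15195, a relative of Hmgn2, was called, at -0.70.

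**Figure D4:**
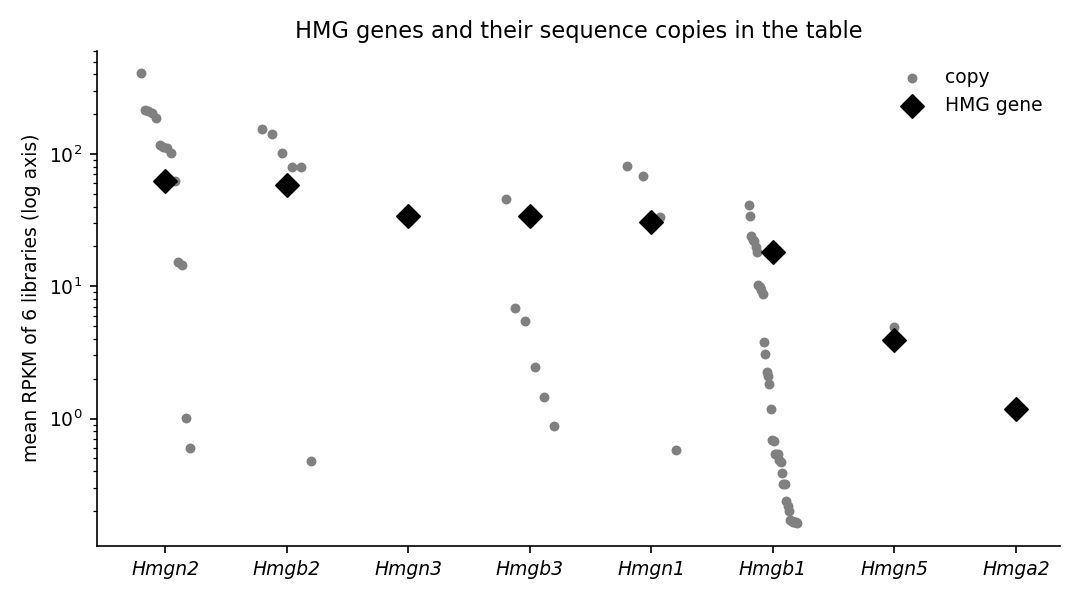
Mean RPKM over the 6 libraries, on a log axis, of each HMG gene except Hmga1 (diamond) and of its copies (grey points, spread sideways for legibility). Copies are the listed identifiers that match a gene at 90% identity over 200 bases in the same orientation. Hmgn3 and Hmga2 have no such copy, and each of the other genes shown has at least 1 copy above its own level, up to 408 RPKM for Hmgn2.

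Promoters of 8 members were found in the RefSeq table for GRCm38.p6, which covers 250 bases before and 50 bases after each start, and that of Hmgn3 was not among them. The E-box CANNTG, the kind of site that basic helix-loop-helix factors recognise, was present on either strand for 4 of 8 members (Hmgn2, Hmga1, Hmgb1 and Hmgb3), against 72.3% of all 32851 promoters. CAGATG, which is 1 form of CANNTG, was in 0 of 8 and in 17.2% of all promoters. CCAAT was in the promoters of 6 of 8 (Hmgn1, Hmgn2, Hmgn5, Hmgb1, Hmgb2 and Hmgb3) against 37.4% of all, and GGGCGG in 7 of 8, all but Hmgn5, against 35.7%. A member was counted if any of its promoters held the motif, while the shares over all are per promoter. Hmga1 and Hmgb1 have more than a single promoter each, and CCAAT and GGGCGG of Hmgb1 lie in different ones. The counts of members and the shares are thus in unlike units. These are counts of letters and not of bound sites.

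Genes that work with HMG proteins were taken from lists fixed with earlier results of these data known. Their calls are those of the limma fit over all genes, at unadjusted p below 0.05, and none passed after adjustment (adjusted p = 0.967 for each called gene). Of all genes, 3.89% were called in either direction and 2.82% higher, and the median log2 fold change was 0.10. Of 7 linker histones, which compete with HMGN proteins for nucleosomes, 1 was called higher and 0 lower, with a median log2 fold change of 0.17. It was H1f0, at 67.1, 63.6 and 67.2 RPKM in Scx-/- and 57.2, 52.6 and 35.0 RPKM in Scx+/+. H1f0 had a log2 fold change of 0.48 (standard error 0.21). Its groups did not overlap, and Scx+/+ replicate 3 was the lowest library. Over all genes, 7.19% had every Scx-/- library above every Scx+/+ library. H1f0 was called in 3 of 11 other settings and in 2 of 6 fits with a library left out, and its call was lost without Scx+/+ replicate 3 or any of the Scx-/- libraries.

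Of 19 histone chaperones, 1 was called higher and 0 lower, with a median of 0.12, close to the 0.10 over all genes. Nasp, which carries histone H1 and H3, was 43.5, 40.9 and 39.2 RPKM in Scx-/- and 33.8, 28.5 and 27.6 RPKM in Scx+/+. Its groups did not overlap either, at a log2 fold change of 0.46 (standard error 0.16). Npm1, Set, Rbbp7 and Anp32a of the list, which were not called, also had every Scx-/- library above every Scx+/+ library, as did 7.19% of all genes. Nasp was called in 9 of 11 other settings, not after quantile normalization or without the trend, and in 6 of 6 fits with a library left out. Of 13 listed genes of a set made of other HMG-box chromatin proteins and Supt16h, 0 were called, with a median of 0.16. The most abundant were the FACT subunits Ssrp1, which carries an HMG box, and Supt16h, which does not, with log2 fold changes of 0.27 and 0.18.

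In the Hmga2 and let-7 axis, 8 of 10 genes were listed (Lin28a and Trim71 were not), 0 were called higher and 1 lower, with a median of -0.13. The called gene was Eif2c2, which encodes Argonaute 2, at 3.43, 3.31 and 2.99 RPKM in Scx-/- and 5.68, 3.84 and 7.25 RPKM in Scx+/+. Every Scx-/- library of Eif2c2 lay below every Scx+/+ library, at a log2 fold change of -0.72 (standard error 0.27). How many of all genes had that order was not counted, so this separation has no share to be set against. Eif2c2 was called in 9 of 11 other settings, but in 1 of 6 fits with a library left out, the one without Scx+/+ replicate 2. Of 8 listed receptors and partners of HMGB1, 0 were called, with a median of 0.25. Cd24a, a cell surface partner of HMGB1, was 0.35 and the chaperone Hspa5 0.25 on the log2 scale. Both had every Scx-/- library above every Scx+/+ library by a small margin, as did 7.19% of all genes by any margin.

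Of 18 proliferation genes, 0 were called at unadjusted p below 0.05 in limma. A log2 fold change above 0 was found for 17 of them, with a median of 0.19, against 63.8% and 0.10 over all genes. Their summed RPKM was 658, 536 and 523 in Scx-/- and 560, 483 and 453 in Scx+/+. It was highest in Scx-/- replicate 1, where 7 HMG genes and 30.1% of the 13827 genes averaging 1 RPKM or more were highest. Top2a and Ccna2, the most abundant proliferation genes, had log2 fold changes of 0.21 and 0.31. The part of proliferation in the HMG values was not tested. In bulk tissue, fewer cells of a type and less RNA per cell cannot be told apart.

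The 5 genes whose profile over the 6 libraries was closest to the mean profile of the HMG genes were Ruvbl1, Swap70, Dph1, the pseudogene Gm11977 and Chmp2b. Likeness was the root mean square difference in centred log2(RPKM + 0.1), which was 0.016 for Ruvbl1 and 0.047 for Chmp2b, against a median of 0.306 over 13818 candidate genes. Ruvbl1 was 26.1, 21.0 and 17.0 RPKM in Scx-/- and 19.9, 16.3 and 17.96 RPKM in Scx+/+, again highest in Scx-/- replicate 1.

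The depth recovered from the values was 46429924 to 68571312 reads a library. Scx as a whole gene was 33.6, 18.6 and 82.9 RPKM in Scx-/- and 29.5, 58.3 and 25.97 RPKM in Scx+/+. This does not check the genotype labels, since the study assessed the null allele by exon 1 and the table gives no value for that exon alone. All 8 valve mesenchyme markers, such as Postn and Tbx20, were listed, with summed RPKM of 330 to 470 in Scx-/- and 289 to 352 in Scx+/+ and 0 called. Cardiomyocyte markers such as Tnnt2 and Myl2 were present at 17773 to 25528 and 15707 to 27844 RPKM (1 of 8 called, lower). Erythroid markers such as Hba-a1 and Hba-a2 summed to 5239 to 8357 and 4832 to 8103 (0 of 8 called), endothelial markers such as Pecam1 and Tek to 124 to 150 and 122 to 141 (0 of 7), and smooth muscle markers such as Acta2 and Tagln to 478 to 672 and 446 to 541 (0 of 5). Epicardial markers such as Tbx18 and Upk3b summed to 22.8 to 33.9 and 18.1 to 25.1 (2 of 6 called, higher), macrophage markers such as C1qa and Lyz2 to 33.2 to 54.8 and 41.8 to 45.7 (1 of 8, higher), and the Schwann cell markers listed, with Erbb3 and Fabp7 among them, to 8.31 to 11.03 and 5.98 to 8.40 (0 of 3), while Sox10 and Foxd3 were not listed. The called epicardial markers were Upk1b and Aldh1a2, at log2 fold changes of 0.61 and 0.60, where 2.82% of all genes were called higher. All 6 epicardial markers were above 0, with a median of 0.46, against 63.8% and 0.10 over all genes. The other cell type lists had medians between 0.01 and 0.41. Ranges of summed RPKM overlapped between the genotypes for each cell type list, and the part of these cells in the HMG values was not tested.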

How the data were processed

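Total RNA of 6 AVC regions was sequenced by the authors, who aligned reads to mm9 with TopHat 1.4.1 (submitters' processing notes), counted reads in Ensembl exons with easyRNASeq and deposited RPKM, with low values replaced by a common value of 0.0949 RPKM. Replicates are libraries that the labels list separately, and p-values measure the spread between these libraries. Of 18810 identifiers, 18695 matched the GENCODE annotation of mm9. Log2(RPKM + 0.1) was fitted with limma 3.58.1 in R 4.3.3, with variances moderated along an intensity trend, without covariates, and p-values were adjusted over all genes by Benjamini-Hochberg. Reads were recovered from RPKM and exon length, whole within 0.1 read for 98.5% to 98.6% of low values. As RPKM are not counts, no count test was run. Copies were found with BLAST 2.17.0. Those of Hmga1 are not reported here. The fits were tested on simulated data. The authors' columns held no comparisons.

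The members and lists were chosen with earlier results of these data known. Named are the members, their copies of highest RPKM, genes of each partner list that were called or otherwise its 2 most abundant, the 2 most abundant cell type markers, Scx, and the 5 genes of most similar profile. Gm15195, Gm4169, Gm13160, Gm13237, Gm10282, Hmgn2-ps1 and Gm7931 were named after their values were seen. So were Upk1b, Aldh1a2, Npm1, Set, Rbbp7 and Anp32a. Alternatives were pseudocounts of 0.01 and 1, a mean of at least 1 RPKM (13827 genes), no trend, analysis of variance on RPKM and on log2, quantile normalization, library medians set to 0, the replicate number as a block, sex as a covariate, removal of spline trends in GC content and exon length, and each library left out.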

Additional observations from a re-analysis of the deposited data

How the results depend on the processing

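Hmgn3 kept its call and its direction in every alternative run, with a log2 fold change of 0.50 with the length and GC trends removed and 0.56 after quantile normalization. Hmgn5 lost its call in the analysis of variance on RPKM (log2 fold change 0.68) and with the length and GC trends removed (0.44), which left 1 HMG gene called in each. The number of HMG genes called was otherwise 2, and between 1 and 2 with a library left out (1 without Scx-/- replicate 1 or Scx+/+ replicate 3). Their median log2 fold change was between 0.08 and 0.39 with a library left out and between 0.08 and 0.25 otherwise. The number of genes called over the table, 731, was between 539 and 1549 with a library left out, the most without Scx+/+ replicate 2, and between 568 and 865 otherwise. Of the lists of partner genes, 3 genes were called, 1 after quantile normalization and between 1 and 8 with a library left out (1 without Scx-/- replicate 1 or Scx+/+ replicate 3, and 8 without Scx+/+ replicate 2). H1f0 and Nasp lost their calls after quantile normalization, and H1f0 and Eif2c2 without Scx-/- replicate 1 or Scx+/+ replicate 3. The cause of these changes was not tested.

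Deviations of same-numbered libraries from their genotype means correlated at 0.09, -0.22 and -0.19 over 13827 genes. The highest correlation across the genotypes was 0.32, of Scx-/- replicate 3 with Scx+/+ replicate 2. The numbers thus showed no pairing, but with 3 libraries a genotype such correlations cannot exclude one. With the replicate number as a block, 573 genes, the same number of HMG genes (2) and 2 partner genes were called. Hmga2 rests on 194 to 850 reads a library and Hmgn5 on 299 to 618, the fewest of the members.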
